A study of Mus musculus with 8 samples.

Results

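The gene names Zfp600 to Zfp999 cover a long series of mouse zinc finger genes, most of them of the C2H2 kind, that were numbered in the order in which they were catalogued rather than by function. The rule that picked them uses the name alone and no measured value. It takes every non-control probe on the array whose gene name is Zfp followed by a number from 600 to 999. The rule was set with earlier results of these data known. The array held 138 such genes on 220 probes, of 30175 gene names on 39429 probes in all. In a C2H2 finger, a pair of cysteines and a pair of histidines hold a zinc ion, and strings of such fingers read DNA sequence. Many of these proteins also carry a KRAB domain, which recruits Trim28 (also called KAP1) and through it the methyltransferase Setdb1, HP1 proteins and histone deacetylases, and in mouse embryonic stem cells (ESCs) this machinery silences endogenous retroviruses. The genes lie in clusters that arose by repeated local duplication, so that neighbours can be very similar in sequence.

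Their signals were taken from arrays of E14 mouse ESCs, a feeder-free line kept undifferentiated with LIF, collected 72 hours after infection with lentiviruses that express short hairpin RNAs. The 8 arrays form 4 groups, each with biological replicates A and B: control KD (a hairpin against EGFP), Tip60 KD, Hdac6 KD and double KD, in which both genes were targeted. Every group, the control included, thus carried a virus and a hairpin, and each targeted gene was depleted with a single hairpin sequence, selected from several, so that effects of that hairpin on other transcripts cannot be told apart from the loss of its target. Tip60 is the acetyltransferase encoded by Kat5, part of the Tip60-p400 remodelling complex, and Hdac6 is a deacetylase, and the comparison asks how far the loss of either, or of both, changes expression.

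All values below are log2 of the array signal divided by that array's 75th percentile, and a change is a difference of 2 group means on this scale. Kat5 read 1.34 and 1.37 on the control arrays, 0.00 and 0.01 after Tip60 KD, 1.52 and 1.53 after Hdac6 KD and -0.11 and 0.20 after double KD. Hdac6 read 2.21 and 2.18 on the control arrays, 1.74 and 1.77 after Tip60 KD, -0.28 and -0.32 after Hdac6 KD and 0.30 and 0.34 after double KD, so that each targeted gene was lowest where its hairpin was given. The 10 listed ESC markers were all measured, with a summed level between 8.32 and 8.47 on all 8 arrays. That sum hides changes of single markers, since bright ones such as Dppa5a weigh most. Pou5f1 was called higher in every knockdown, by 1.01 (Tip60), 0.47 (Hdac6) and 0.63 (double). Zfp42 was called higher with Tip60 KD (0.45) and double KD (0.37), Tdgf1 with Hdac6 KD (0.59) and double KD (0.33). Utf1 was called higher only in Tip60 KD (0.28) and Sox2 lower only in double KD (-0.35). Dppa5a, Esrrb, Fgf4, Klf4 and Nanog were called in none. The summed level of the neural markers, 4 of 5 measured, was 1.78 to 2.00 in Tip60 KD and double KD and 0.90 to 1.22 in control KD and Hdac6 KD. Of these 4, Tubb3 was called higher, by 1.96 after Tip60 KD, 0.52 after Hdac6 KD and 1.76 after double KD, and Sox1, Pax6 and Neurog2 were not, with Pax6 and Neurog2 at the floor on most arrays. The summed level of the fibroblast markers, 3 of 6 measured, was 1.23 to 1.49 in Tip60 KD and double KD and 0.75 to 0.95 in the other groups. Of 4 trophectoderm markers 1 was measured, Eomes. It was called higher in Tip60 KD (0.84) and not called in Hdac6 KD (0.17) or double KD (0.33). The part of such cells in the Zfp results was not tested. In bulk RNA, fewer cells of a type and less RNA per cell cannot be told apart. Between 21896 and 40609 of 43020 spots were well above background, and the median background that the scanner software subtracted was 61.0 and 114.3 units for control KD, 37.2 and 89.0 for Tip60 KD, 37.7 and 86.9 for Hdac6 KD and 39.4 and 41.4 for double KD.

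Of the 138 genes, 114 had a probe above background on at least 2 arrays and were tested among 18112 genes, and 24 were not, among them Zfp608, Zfp703 and Zfp711. Members that passed through a group in which they were high had to differ, so counts below describe the tested members and not the whole series of names. Their median signal was -0.41 against -0.28 over all genes tested. Replicate arrays of a group correlated across the tested members with r between 0.984 and 0.990, which is across genes, and genes are not independent replicates. In all, 63 members were called in at least 1 knockdown against control KD and 51 in none. A call is a limma adjusted p under 0.1. The matching share of all 18112 genes is not given, so the 63 cannot be set against a background. The same holds for every set below that combines calls over several knockdowns, and these sets only order the description. For scale, 28.9% of all genes tested had a call after Hdac6 KD, 32.8% after double KD and 39.7% after Tip60 KD.

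Zfp819 rose about as far in all 3 knockdowns and was the member with the largest increase in each. It encodes a KRAB protein that binds Trim28 and is expressed in pluripotent cells. Its probe, at chr7:50873521-50873580 on mouse build mm9, read -0.73 and -0.86 on the control arrays, 0.64 and 0.47 after Tip60 KD, 0.65 and 0.65 after Hdac6 KD and 0.74 and 0.69 after double KD. All 6 knockdown arrays lay above both control arrays by more than 1 log2 unit. The change was 1.35 ± 0.09 (SE, adjusted p = 0.00075) in Tip60 KD, 1.44 ± 0.09 (SE, adjusted p = 0.00159) in Hdac6 KD and 1.51 ± 0.09 (SE, adjusted p = 0.00115) in double KD, and it was called under each alternative processing tried.

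The other 12 members called higher in all 3 knockdowns were Zfp607, Zfp668, Zfp747, Zfp758, Zfp764, Zfp771, Zfp808, Zfp951, Zfp953, Zfp957, Zfp959 and Zfp961. Zfp764 (chr7:134547285-134547344) read -1.29 and -1.22 on the control arrays, -0.32 and -0.48 after Tip60 KD, -0.34 and -0.45 after Hdac6 KD and -0.38 and -0.57 after double KD. Zfp668, whose human counterpart acts in the response to DNA damage, read -1.36 and -1.39 on the control arrays, -0.76 and -0.65 after Tip60 KD, -0.79 and -0.64 after Hdac6 KD and -0.75 and -0.56 after double KD. Zfp951 read -2.17 and -2.30 on the control arrays, -1.30 and -1.21 after Tip60 KD, -1.56 and -1.37 after Hdac6 KD and -1.11 and -1.34 after double KD. In these 3 genes as well, every knockdown array lay above both control arrays, and the knockdown groups overlapped one another except for Zfp951, where both Hdac6 KD arrays lay below the other knockdown arrays. The change of Zfp764 was 0.85 ± 0.11 (SE, adjusted p = 0.00286) in Tip60 KD, 0.86 ± 0.11 (SE, adjusted p = 0.00564) in Hdac6 KD and 0.78 ± 0.11 (SE, adjusted p = 0.00587) in double KD. Zfp668 changed by 0.67, 0.66 and 0.72 in the same order (SE 0.10, adjusted p = 0.00551, 0.0103 and 0.0067), and Zfp951 by 0.98, 0.77 and 1.01 (SE 0.12, adjusted p = 0.00273, 0.0101 and 0.00398).

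Zfp771 rose most in Hdac6 KD. It read 1.19 and 1.23 on the control arrays, 1.90 and 1.71 after Tip60 KD, 2.30 and 2.23 after Hdac6 KD and 2.10 and 1.95 after double KD, with the 3 knockdown groups apart from each other and all above control KD. The change was 0.59 ± 0.10 (SE, adjusted p = 0.00723) in Tip60 KD, 1.06 ± 0.10 (SE, adjusted p = 0.00306) in Hdac6 KD and 0.81 ± 0.10 (SE, adjusted p = 0.00432) in double KD, and Tip60 KD lay -0.46 ± 0.10 (SE, adjusted p = 0.0299) from Hdac6 KD. That direct difference was no longer called without Tip60 KD array B (adjusted p = 0.13) or either Hdac6 KD array (0.15 and 0.11). Zfp758 read -2.32 and -2.71 in control KD, the second at the floor, -1.53 on the 1 Tip60 KD array with a usable spot, -1.50 and -1.65 after Hdac6 KD and -1.42 and -1.71 after double KD. Its increase of 0.99, 0.94 and 0.95 (adjusted p = 0.0273, 0.0259 and 0.0224) rests on dim values. It was not called in any of the 3 with quantile normalization (adjusted p = 0.23, 0.15 and 0.17) or in the series matrix (0.11, 0.30 and 0.31), and the Hdac6 KD call was lost without Hdac6 KD array A (0.12) or B (0.10). Zfp644, whose human counterpart is a partner of the G9a methyltransferase complex, was called higher in Hdac6 KD (0.30, adjusted p = 0.04) and also in double KD (0.24, adjusted p = 0.0681). Neither was called with the mean of its probes (0.30, adjusted p = 0.39, and 0.09, adjusted p = 0.81). Both calls were also lost without control KD array B (changes of 0.24 and 0.18) or without either Hdac6 KD array. The double KD call was lost without either double KD array as well (changes of 0.26 and 0.23).

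**Figure D1:**
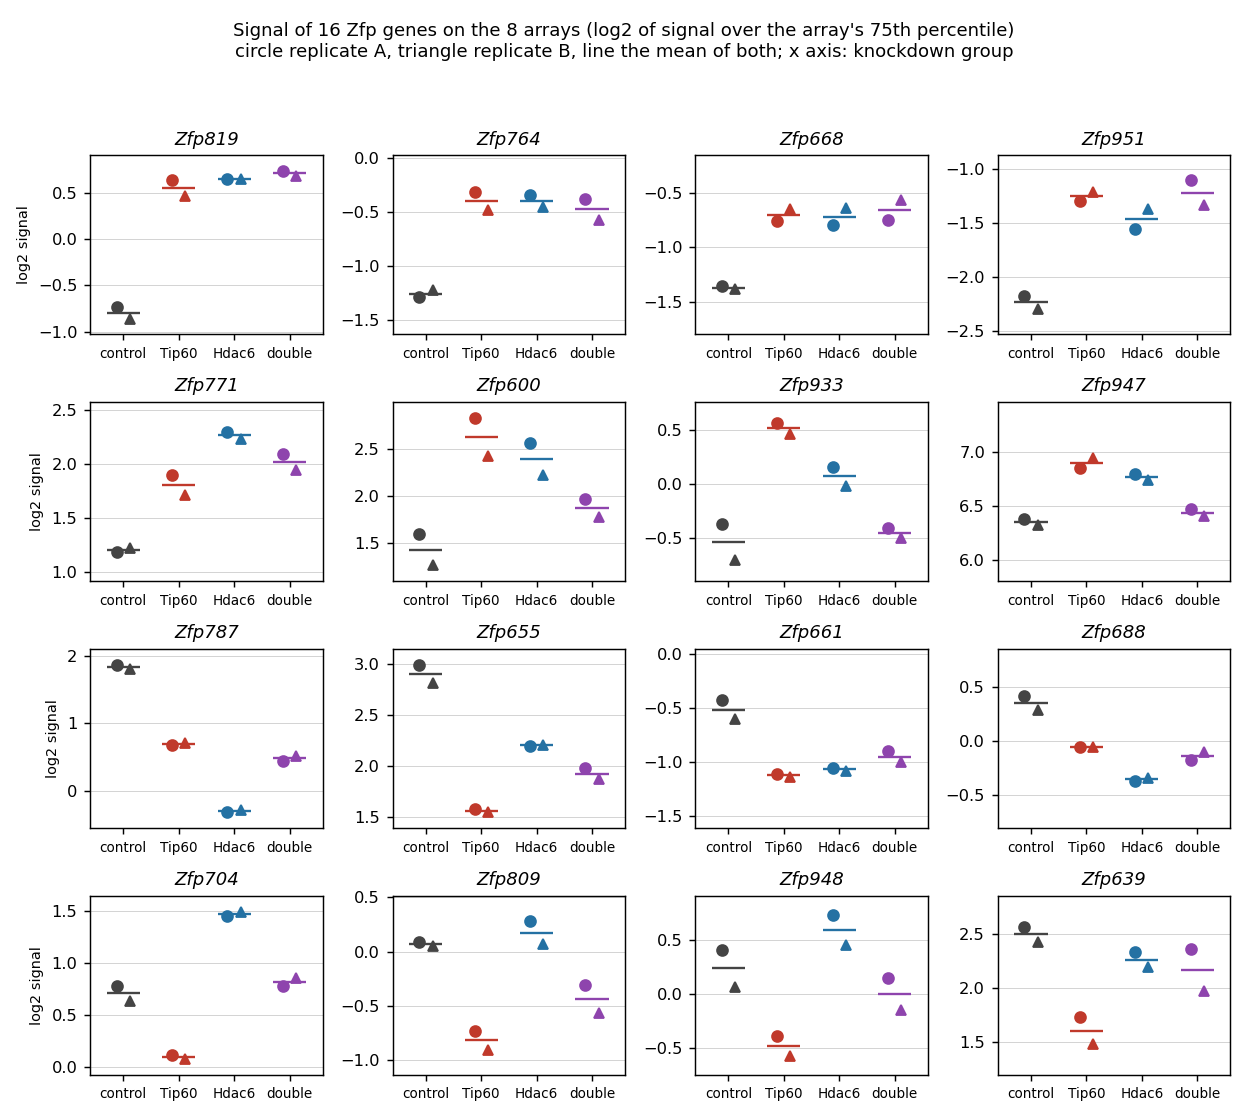
Signal of 16 Zfp members on the 8 arrays, as log2 of the signal over the array's 75th percentile (y axis), by knockdown group (x axis), with circles for replicate A, triangles for replicate B and a line at the mean of both, each panel with its own y range. Zfp819 lay between 0.47 and 0.74 on the 6 knockdown arrays and at -0.73 and -0.86 in control KD, while Zfp704 lay below control KD in Tip60 KD and above it in Hdac6 KD.

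The promoters of the members that rose can be set beside each other. RefSeq promoter windows (250 bases before to 50 after the start, build GRCm38.p6) were found for 118 of the 138 members, 146 windows in all. Zfp819 and Zfp758, which rose in all 3 knockdowns, Zfp933, which rose in the single knockdowns, and Zfp787, which fell, are shown. All 3 rising members shown are among the 7 members higher in Hdac6 KD with an E-box in a window. They do not stand for the other rising members, most of which lack it. Capitals mark CACGTG, the E-box, and CCAAT in either direction. The windows are chr7:43606919-43607218 (+ strand) for Zfp819, chr17:22361213-22361512 (+ strand) for Zfp758, chr4:147848369-147848668 (- strand) for Zfp933 and chr7:6155916-6156215 (- strand) for Zfp787, each printed 5′ to 3′ on its own strand.
Zfp819: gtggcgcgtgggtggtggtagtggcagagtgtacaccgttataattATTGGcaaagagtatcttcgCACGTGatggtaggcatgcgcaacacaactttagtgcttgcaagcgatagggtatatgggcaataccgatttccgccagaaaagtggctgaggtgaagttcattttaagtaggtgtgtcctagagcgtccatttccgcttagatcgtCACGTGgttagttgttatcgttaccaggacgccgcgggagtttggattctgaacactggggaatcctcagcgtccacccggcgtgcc
Zfp758: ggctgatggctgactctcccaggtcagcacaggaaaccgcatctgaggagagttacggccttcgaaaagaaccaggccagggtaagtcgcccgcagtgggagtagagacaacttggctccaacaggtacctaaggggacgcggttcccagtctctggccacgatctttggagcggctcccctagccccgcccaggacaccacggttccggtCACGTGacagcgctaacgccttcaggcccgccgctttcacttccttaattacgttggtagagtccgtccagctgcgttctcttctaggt
Zfp933: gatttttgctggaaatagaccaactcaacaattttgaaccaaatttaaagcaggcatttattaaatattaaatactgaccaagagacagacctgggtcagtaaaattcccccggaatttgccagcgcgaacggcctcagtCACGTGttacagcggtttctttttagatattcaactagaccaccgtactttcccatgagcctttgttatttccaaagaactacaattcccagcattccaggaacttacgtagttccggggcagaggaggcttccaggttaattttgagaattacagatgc
Zfp787: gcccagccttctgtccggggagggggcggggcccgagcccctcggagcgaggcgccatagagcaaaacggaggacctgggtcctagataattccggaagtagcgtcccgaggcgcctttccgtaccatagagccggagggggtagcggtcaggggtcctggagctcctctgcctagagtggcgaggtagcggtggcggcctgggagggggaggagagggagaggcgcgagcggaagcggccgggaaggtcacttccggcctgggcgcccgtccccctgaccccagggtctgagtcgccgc

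Zfp819 held 2 E-boxes and Zfp758 and Zfp933 held 1 each, while the Zfp787 window held neither motif. Of the 35 windows of members called higher in Hdac6 KD, 7 (20%) held CACGTG, those of Zfp747, Zfp758, Zfp819, Zfp820, Zfp933, Zfp946 and Zfp947. It stood in 6.74% of the 89 windows of the other tested members and in 7.15% of all 32851 promoters. CCAAT, read on both strands, stood in 68.6%, 51.7% and 37.4% of these sets, and TGACG, the core of the cAMP response element, in 14.3%, 40.4% and 20.8%. The median number of CpG dinucleotides was 8 in the windows of members higher in Hdac6 KD, 16 in those of the other tested members and 7 over all promoters. The motifs named here were picked from 7 after their shares were seen, so that these shares are a description. The windows of Zfp758 and Zfp944, which are read from opposite strands, overlap by 162 bases and share the same E-box. Zfp758 was called higher in all 3 knockdowns, with the limits given above. Zfp944 read 0.40 and 0.24 on the control arrays, 0.07 and -0.17 after Tip60 KD, 0.29 and -0.03 after Hdac6 KD and -0.06 and -0.39 after double KD. It was called lower in double KD (-0.55 ± 0.17 (SE, adjusted p = 0.0706)). That call was lost with normexp background correction (adjusted p = 0.13) and in the series matrix (0.13). With the mean of its probes the change was -0.09 (adjusted p = 0.77), so the contrast with Zfp758 rests on 1 probe.

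Members called higher in both single knockdowns but not in double KD formed a second set of 9, namely Zfp600, Zfp820, Zfp873, Zfp931, Zfp933, Zfp936, Zfp938, Zfp941 and Zfp947. How many of all genes had this pattern is not given, so the 9 cannot be set against a background. Zfp933 read -0.37 and -0.70 on the control arrays, 0.56 and 0.47 after Tip60 KD, 0.16 and -0.02 after Hdac6 KD and -0.40 and -0.50 after double KD. The Tip60 KD arrays were highest, the Hdac6 KD arrays next, and double KD overlapped control KD. The change was 1.05 ± 0.13 (SE, adjusted p = 0.00312) in Tip60 KD, 0.61 ± 0.13 (SE, adjusted p = 0.0274) in Hdac6 KD and 0.09 ± 0.13 (SE, adjusted p = 0.709) in double KD, and double KD lay -0.96 ± 0.13 (SE, adjusted p = 0.0599) from Tip60 KD. Without any 1 of the 8 arrays that last difference was not called (adjusted p 0.13 to 0.26), and the Hdac6 KD call was lost without Hdac6 KD array A (0.13).

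Zfp600 (chr4:146162816-146162875) read 1.60 and 1.27 on the control arrays, 2.83 and 2.43 after Tip60 KD, 2.56 and 2.22 after Hdac6 KD and 1.97 and 1.78 after double KD. Its change was 1.20 ± 0.20 (SE, adjusted p = 0.00771) in Tip60 KD, 0.96 ± 0.20 (SE, adjusted p = 0.0244) in Hdac6 KD and 0.44 ± 0.20 (SE, adjusted p = 0.176) in double KD, where all arrays lay above control KD. With a replicate block the double KD change was called (adjusted p = 0.00442), and the Hdac6 KD call was lost without control KD array B (0.12) or Hdac6 KD array A (0.11). Zfp947 read 6.38 and 6.32 on the control arrays, 6.85 and 6.94 after Tip60 KD, 6.80 and 6.74 after Hdac6 KD and 6.47 and 6.40 after double KD, with changes of 0.54 ± 0.08 (SE, adjusted p = 0.00439), 0.42 ± 0.08 (SE, adjusted p = 0.0169) and 0.09 ± 0.08 (SE, adjusted p = 0.492). Its other probe, also above background on all 8 arrays, changed by -0.05 with Tip60 KD and -0.02 with Hdac6 KD and was not called. Zfp930 read 3.28 and 2.35 on the control arrays, 4.32 and 3.70 after Tip60 KD, 3.82 and 3.21 after Hdac6 KD and 3.34 and 2.78 after double KD, with replicate A above B in every group, and its Tip60 KD change of 1.19 ± 0.41 (SE, adjusted p = 0.0778) was lost without control KD array B (adjusted p = 0.29) or either Tip60 KD array (0.29 without A and 0.11 without B).

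The probes of this second set were read beside those of the other members, because a probe of 60 bases inside the fingers can match more than 1 transcript. The representative probes of Zfp947, Zfp933 and Zfp936 lie in codons for the conserved link between neighbouring fingers and are shown for that reason. Capitals mark the longest run shared with a probe of another gene or unnamed transcript, 30 bases in Zfp947, 23 in Zfp933 and 29 in Zfp936.
Zfp947: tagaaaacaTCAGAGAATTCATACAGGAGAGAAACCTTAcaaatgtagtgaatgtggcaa
Zfp933: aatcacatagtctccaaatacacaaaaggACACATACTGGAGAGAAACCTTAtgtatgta
Zfp936: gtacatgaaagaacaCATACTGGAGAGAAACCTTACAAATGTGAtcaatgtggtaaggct

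Among the 114 representative probes, 16 shared a run of at least 20 bases with a probe of another gene. They included 7 of the 9 members higher in both single knockdowns only and 1 of the 13 higher in all 3 knockdowns, Zfp771. Of these 16 members, 10 were called higher and 0 lower after Tip60 KD, 8 and 0 after Hdac6 KD, and 1 and 0 after double KD. The other 98 were called higher 19 times and lower 23 times in Tip60 KD, 22 and 9 times in Hdac6 KD, and 13 and 14 times in double KD. The part of cross-hybridisation in the changes of the 16 was not tested.

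The members with the largest decreases were Zfp787 in Hdac6 KD and Zfp655 in Tip60 KD, and both fell in all 3 knockdowns. Zfp787 (chr7:6094005-6094064) read 1.87 and 1.80 on the control arrays, 0.68 and 0.71 after Tip60 KD, -0.32 and -0.28 after Hdac6 KD and 0.43 and 0.52 after double KD. No 2 groups overlapped, and Hdac6 KD was lowest. It fell by 1.14 ± 0.07 (SE, adjusted p = 0.000708) in Tip60 KD, 2.14 (adjusted p = 0.000417) in Hdac6 KD and 1.36 (adjusted p = 0.000997) in double KD on the log2 scale. Adjusted p-values of second probes are from a limma fit over all probes. A second Zfp787 probe, above background on all 8 arrays, changed by -0.34 (adjusted p = 0.0497), 0.20 (adjusted p = 0.24) and -0.23 (adjusted p = 0.157) in the same order. The decrease in Tip60 KD was thus called with both probes and those in Hdac6 KD and double KD with 1.

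Zfp655, a Krüppel-type protein described as a partner of the signalling protein Vav1, read 3.00 and 2.81 on the control arrays, 1.57 and 1.54 after Tip60 KD, 2.20 and 2.20 after Hdac6 KD and 1.98 and 1.87 after double KD at chr5:146008104-146008163. Its groups did not overlap either, and Tip60 KD was lowest. It changed by -1.35 ± 0.09 (SE, adjusted p = 0.00075) in Tip60 KD, -0.70 ± 0.09 (SE, adjusted p = 0.00641) in Hdac6 KD and -0.98 ± 0.09 (SE, adjusted p = 0.00231) in double KD. Its second measured probe changed by -0.86 (adjusted p = 0.0275), -0.58 (adjusted p = 0.115) and -1.06 (adjusted p = 0.0186), without a call in Hdac6 KD. Zfp661 changed by -0.61, -0.55 and -0.43 (SE 0.09), and its 2 probes, which cover nearly the same bases, were both called lower in all 3 knockdowns. The Hdac6 KD and double KD calls were lost in the series matrix (adjusted p = 0.13 and 0.16).

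Zfp688 and Zfp689 are neighbours on chromosome 7. Zfp688 read 0.41 and 0.29 on the control arrays, -0.06 and -0.05 after Tip60 KD, -0.36 and -0.34 after Hdac6 KD and -0.17 and -0.10 after double KD, with changes of -0.40 ± 0.08 (SE, adjusted p = 0.0123), -0.70 ± 0.08 (SE, adjusted p = 0.0044) and -0.48 ± 0.08 (SE, adjusted p = 0.00967). Zfp689 read -0.86 and -0.86 on the control arrays, -1.29 and -1.04 after Tip60 KD, -1.78 and -1.69 after Hdac6 KD and -1.26 and -1.09 after double KD, lowest in Hdac6 KD (-0.88 ± 0.11 (SE, adjusted p = 0.00658)). Averaged over its 3 probes the Zfp689 change in Hdac6 KD was -0.08 (adjusted p = 0.66) and that in Tip60 KD was 0.13 in place of -0.31, since the other probes changed by values above 0 in all 3 knockdowns, 1 of them with a call in Tip60 KD. Zfp692 was called lower in all 3 knockdowns (-0.34, -0.27 and -0.42, adjusted p = 0.0237, 0.0633 and 0.0153), but the mean of its probes changed by 0.03, 0.01 and -0.07. Zfp746, a KRAB repressor known as PARIS that parkin targets for degradation, read -0.79 and -0.87 on the control arrays, -0.99 and -0.88 after Tip60 KD, -1.10 and -1.15 after Hdac6 KD and -1.40 and -1.28 after double KD and was called lower in Hdac6 KD by -0.30 ± 0.09 (SE, adjusted p = 0.0617) and in double KD by -0.51 ± 0.09 (SE, adjusted p = 0.0109). The Hdac6 KD call for Zfp746 was lost without either control KD array (adjusted p = 0.22 and 0.13) or either Hdac6 KD array (0.15 and 0.24).

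A group of 15 members was called lower in Tip60 KD and not called in Hdac6 KD, 5 of them also lower in double KD (Zfp606, Zfp652, Zfp706, Zfp809 and Zfp949) and 10 not (Zfp639, Zfp664, Zfp687, Zfp760, Zfp768, Zfp799, Zfp871, Zfp945, Zfp948 and Zfp954). Zfp954, like Zfp652 and Zfp809, also had a probe called higher in Tip60 KD. Zfp871 was not above the floor on either Tip60 KD array, so that its call there carries no size. With a replicate block this grouping changed, as Zfp606, Zfp639, Zfp652 and Zfp664 were called lower in Hdac6 KD too (adjusted p = 0.0457, 0.0621, 0.0627 and 0.0109) and Zfp639, Zfp664 and Zfp948 in double KD (0.0207, 0.00313 and 0.0252), and Zfp948 was called higher in Hdac6 KD. The double KD call of Zfp606 was lost with the mean of its probes (adjusted p = 0.11). Zfp809 recruits Trim28 to the primer binding site of murine leukaemia viruses and silences proviruses in ESCs. It read 0.09 and 0.05 on the control arrays, -0.73 and -0.90 after Tip60 KD, 0.28 and 0.07 after Hdac6 KD and -0.31 and -0.56 after double KD. Both Tip60 KD arrays were lowest, double KD lay between, and Hdac6 KD overlapped control KD. The change was -0.89 ± 0.13 (SE, adjusted p = 0.00453) in Tip60 KD, 0.11 ± 0.13 (SE, adjusted p = 0.647) in Hdac6 KD and -0.50 ± 0.13 (SE, adjusted p = 0.0372) in double KD, and Tip60 KD lay -0.99 ± 0.13 (SE, adjusted p = 0.00782) from Hdac6 KD. A second Zfp809 probe was called higher in Tip60 KD, with a change of 0.27 (adjusted p = 0.0435), and lower in Hdac6 KD, with -0.41 (adjusted p = 0.0171), and changed by 0.07 (adjusted p = 0.589) in double KD, so that no direction can be given for the gene as a whole. The double KD call was lost without control KD array A (adjusted p = 0.15) or B (0.12) or double KD array B (0.15).

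Zfp706 restrains Klf4 and favours the exit of ESCs from self-renewal. It read 4.12 and 4.16 on the control arrays, 3.71 and 3.66 after Tip60 KD, 4.05 and 4.10 after Hdac6 KD and 3.83 and 3.85 after double KD. Tip60 KD was lowest, double KD lay next, and both Hdac6 KD arrays lay just below control KD. The change was -0.45 ± 0.07 (SE, adjusted p = 0.00578) in Tip60 KD, -0.06 ± 0.07 (SE, adjusted p = 0.621) in Hdac6 KD and -0.30 ± 0.07 (SE, adjusted p = 0.0305) in double KD, and its second probe changed by -0.59 (adjusted p = 0.00257), -0.20 (adjusted p = 0.105) and -0.53 (adjusted p = 0.00549). With the first probe the double KD call was lost with quantile normalization (adjusted p = 0.25), with a GC trend removed (0.22), in the series matrix (0.11) and when either control KD array B (0.12) or array A of double KD (0.11) was left out. Zfp639, also known as ZASC1, read 2.57 and 2.43 on the control arrays, 1.73 and 1.48 after Tip60 KD, 2.33 and 2.19 after Hdac6 KD and 2.37 and 1.98 after double KD and changed by -0.89 ± 0.16 (SE, adjusted p = 0.00978) in Tip60 KD. Zfp652, a repressor that works with CBFA2T3, changed by -0.85 ± 0.12 (SE, adjusted p = 0.00482) in Tip60 KD, where its second probe rose by 0.31 (adjusted p = 0.062), a call in the opposite direction. The double KD call of Zfp652 was lost without any 1 of the control KD, Hdac6 KD or double KD arrays (adjusted p 0.15 to 0.33), and its second probe rose there by 0.49 (adjusted p = 0.0184). Zfp687, a partner of the chromatin reader Zmynd8, changed by -0.48 ± 0.10 (SE, adjusted p = 0.0162) in Tip60 KD and by 0.12 ± 0.10 (SE, adjusted p = 0.504) in Hdac6 KD. Zfp664 changed by -0.66 ± 0.18 (SE, adjusted p = 0.0407) in Tip60 KD, a call lost without control KD array A or Tip60 KD array B (adjusted p = 0.18 for both). Zfp606 was not above the floor on either Tip60 KD array, so that its call there (adjusted p = 0.00262) carries no size, and its second probe changed by 0.03 in Tip60 KD without a call.

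Zfp704 and Zfp617 were called in opposite directions in the single knockdowns, lower in Tip60 KD and higher in Hdac6 KD. Zfp704 (chr3:9427052-9427111) read 0.78 and 0.64 on the control arrays, 0.11 and 0.08 after Tip60 KD, 1.44 and 1.49 after Hdac6 KD and 0.78 and 0.85 after double KD. Tip60 KD lay below control KD, Hdac6 KD above it, and double KD at or just above the higher control array. The change was -0.61 ± 0.08 (SE, adjusted p = 0.00373) in Tip60 KD, 0.76 ± 0.08 (SE, adjusted p = 0.00415) in Hdac6 KD and 0.11 ± 0.08 (SE, adjusted p = 0.42) in double KD. Tip60 KD lay -1.37 ± 0.08 (SE, adjusted p = 0.00183) from Hdac6 KD, and double KD lay 0.72 ± 0.08 (SE, adjusted p = 0.0476) from Tip60 KD, the second of which was not called without any 1 of the 8 arrays (adjusted p 0.13 to 0.26). Its second probe rose in Hdac6 KD by 0.84 (adjusted p = 0.0258) but changed by 0.32 (adjusted p = 0.251) in Tip60 KD, so that the decrease was seen with 1 of 2 probes. Zfp948, at chr17:21725548-21725607, read 0.41 and 0.06 on the control arrays, -0.38 and -0.57 after Tip60 KD, 0.72 and 0.45 after Hdac6 KD and 0.15 and -0.15 after double KD and lay -1.07 ± 0.18 (SE, adjusted p = 0.0146) in Tip60 KD from Hdac6 KD. Against control KD it changed by -0.71 ± 0.18 (SE, adjusted p = 0.0279) in Tip60 KD, lost without control KD array A or Tip60 KD array B (adjusted p = 0.13 for both), and by 0.35 ± 0.18 (SE, adjusted p = 0.231) in Hdac6 KD, where a replicate block gave an adjusted p of 0.00734.

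Zfp932, a KRAB protein that restrains endogenous retroviruses in ESCs, read 0.29 and 0.20 on the control arrays, 0.51 and 0.37 after Tip60 KD, 0.90 and 0.76 after Hdac6 KD and 0.71 and 0.43 after double KD. It was called higher in Hdac6 KD (0.59 ± 0.12 (SE, adjusted p = 0.0247)), without control KD array B or Hdac6 KD array A not (adjusted p = 0.12 for both). A second Zfp932 probe, above background on all 8 arrays, was called lower in every knockdown, with changes of -1.70 (adjusted p = 0.00178) for Tip60 KD, -2.13 (adjusted p = 0.00232) for Hdac6 KD and -1.51 (adjusted p = 0.00399) for double KD. Called probes of the same member moved in opposite directions in Tip60 KD for 6 of the 17 members that had 2 or more called probes there, against 1 of 9 for Hdac6 KD and 1 of 8 for double KD. Which transcripts these probes cover was not examined, and 76 members rested on 1 probe.

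Among members with described roles that were called in no knockdown, Zfp622, a ribosome maturation factor, read 3.40 and 3.29 on the control arrays, 3.46 and 3.21 after Tip60 KD, 3.34 and 3.28 after Hdac6 KD and 3.51 and 3.30 after double KD, and all groups overlapped control KD. Zfp830, which early embryos need for the inner cell mass, changed by 0.25, 0.35 and 0.36 (adjusted p = 0.256, 0.146 and 0.126), and was called higher in all 3 with a replicate block (0.0368, 0.0147 and 0.0121). Zfp628 and Zfp710, named for their signal, changed by at most 0.18 in size against control KD. Zfp663 was named by the same rule, but its probe is a CA repeat that shares at least 20 bases with probes of 23 other genes, and no change is given for it. Zfp609, a cohesin loader partner, was called higher in Tip60 KD (0.40 ± 0.12 (SE, adjusted p = 0.0501)), a call lost without either control KD array (adjusted p = 0.12 and 0.18) or Tip60 KD array A (0.15). Its second probe changed by 0.11 (adjusted p = 0.379) after Tip60 KD without a call but was called higher after Hdac6 KD, by 0.33 (adjusted p = 0.0406), and after double KD, by 0.36 (adjusted p = 0.0296).

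Counted over the 114 tested members, more members were called higher than lower in Hdac6 KD, while in Tip60 KD members were called in both directions. In Hdac6 KD, 39 members were called, 30 higher and 9 lower, or 26.3% and 7.89%. Of all genes tested, 28.9% were called in Hdac6 KD, 14% higher and 14.9% lower. Weighted to the members' own signal, in 5 ranges of mean signal, genes on the array would be called higher in 15.1% and lower in 15.2% of cases. The median change of members was 0.17 against 0.03 over all genes, 0.16 within slide A and 0.19 within slide B, each slide holding 1 array of every group. Both Hdac6 KD arrays lay above both control arrays in 49 members and below in 22, against 27.9% and 28.1% of all genes. The count was 22, with 15 higher and 7 lower, without Hdac6 KD array A and 24, with 19 higher and 5 lower, without control KD array B. Subtracting the same negative control background on every array left 28 higher and 11 lower.

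In Tip60 KD, 52 members were called, 29 higher and 23 lower (25.4% and 20.2%), where 39.7% of all genes were called, 19.7% higher and 20% lower. Their median change was 0.07 against 0.06 over all genes, 0.08 within slide A and 0.05 within slide B. Changes of at least 2-fold were called in 6 of the 114 members, up in Zfp600, Zfp819, Zfp930 and Zfp933 and down in Zfp655 and Zfp787. Over all 18112 genes they were called in 902, a share near that of the members. In double KD, 28 members were called, 14 higher and 14 lower (12.3% each), where 32.8% of all genes were called, 15.9% higher and 16.8% lower. Weighted to the members' signal these last shares were 17.1% and 16.8%. The double KD split was 15 higher and 8 lower in the deposited series matrix. The median change in double KD was 0.09 against 0.05 over all genes, 0.02 within slide A and 0.11 within slide B, and it was 0.0278 without control KD array B, 0.0416 without double KD array A and 0.0275 in the series matrix. These comparisons share the control arrays.

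**Figure D2:**
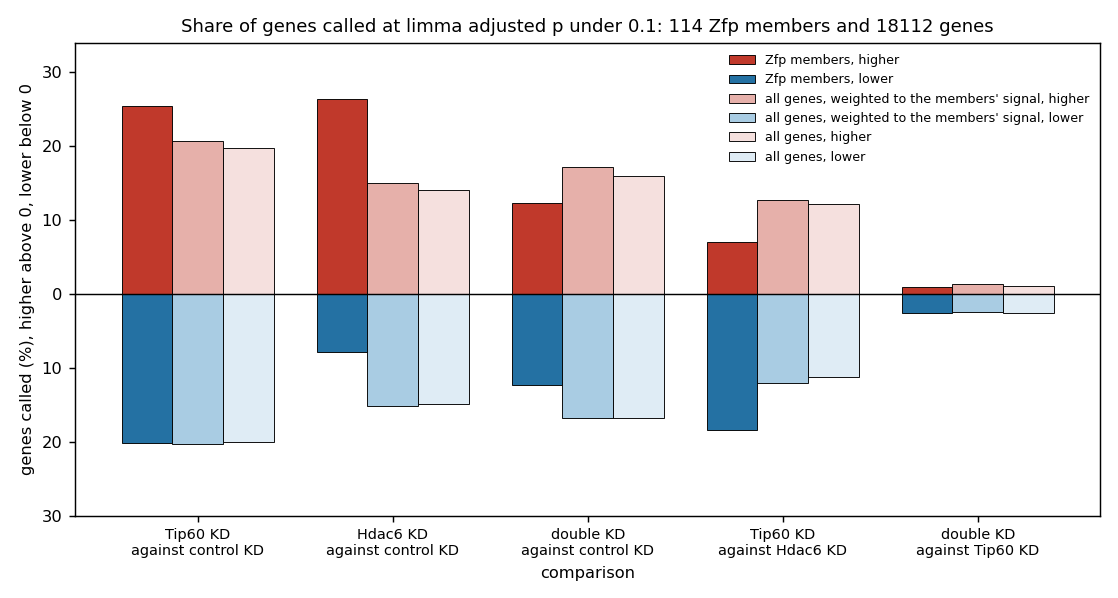
Share of genes called at a limma adjusted p under 0.1 (y axis, percent, higher above 0 and lower below 0) in 5 comparisons (x axis), for the 114 Zfp members, for all genes weighted to the members' signal and for all 18112 genes. In Hdac6 KD 26.3% of members were higher against 14% of all genes and 7.89% lower against 14.9%, whereas the double KD shares of members, 12.3% each way, were below those of all genes.

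Compared directly, Tip60 KD and Hdac6 KD differed in 29 members, 8 higher and 21 lower in Tip60 KD (7.02% and 18.4%). Over all genes 23.5% differed, 12.2% higher and 11.3% lower. Among the called members the largest differences were those of Zfp704, Zfp948 and Zfp809 on the lower side and of Zfp787, Zfp689 and Zfp933 on the higher side. The Zfp933 difference was lost without either array of Tip60 KD, Hdac6 KD or double KD (adjusted p 0.12 to 0.31). Leaving out 1 array of either group gave 12 to 17 calls, and the split was 3 and 21 with normexp background correction, 4 and 20 with the same background on every array and 4 and 19 with quantile normalization. Double KD and Tip60 KD differed in 4 members, of which Zfp704 was higher and Zfp746, Zfp933 and Zfp947 lower in double KD, where 3.7% of all genes were called, 1.14% higher and 2.56% lower. None of these 4 was called without any 1 of the 8 arrays. With all 8, 28 of the 114 members had an unadjusted limma p under 0.05, against 3107 of all 18112 genes.

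**Figure D3:**
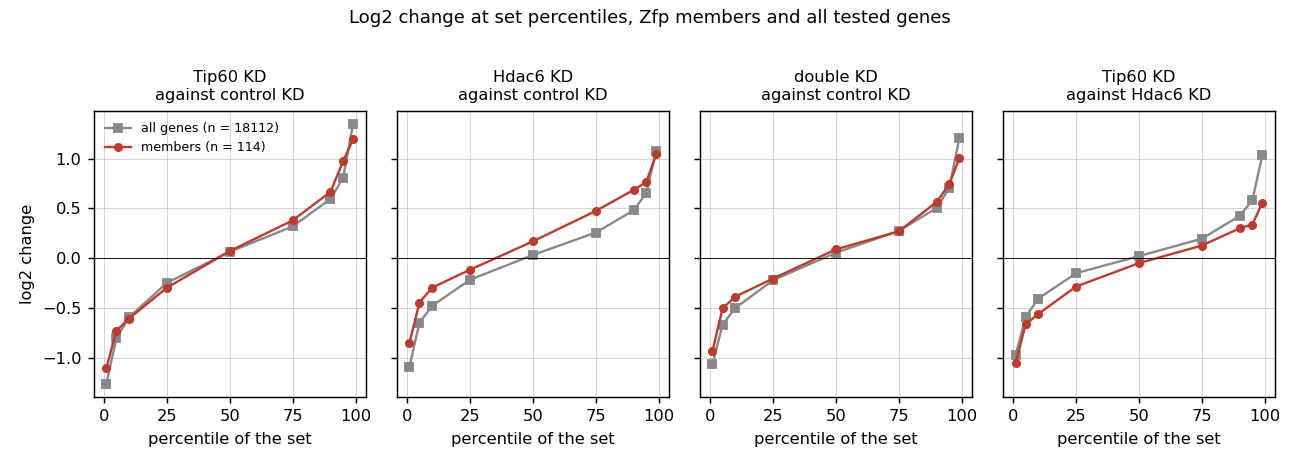
Log2 change (y axis) at the 1st to 99th percentile (x axis) of the 114 Zfp members, red, and of all 18112 genes, grey, in 4 comparisons. In Hdac6 KD the members lay above all genes from the 1st to the 95th percentile and below them at the 99th (1.04 and 1.08), with medians of 0.17 and 0.03, while in Tip60 KD the medians were 0.07 and 0.06.

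The replicate letters paired the arrays, and a fit with a replicate block raised the number of members called. With the block, 82 members were called in Tip60 KD (45 higher and 37 lower), 75 in Hdac6 KD (51 and 24), 66 in double KD (37 and 29), 51 between Tip60 KD and Hdac6 KD (18 and 33) and 48 between double KD and Tip60 KD (24 and 24). Over all genes the block called 60.8%, 52.9%, 55.4%, 41.5% and 26.2% in the same order. Higher members still outnumbered lower ones in Hdac6 KD, and lower ones outnumbered higher ones in Tip60 KD against Hdac6 KD.

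Split by the number in the name, the Zfp900 to Zfp999 genes held 13 of the 30 members called higher in Hdac6 KD, more than Zfp600 to Zfp699, Zfp700 to Zfp799 or Zfp800 to Zfp899. Of 29 tested, 0 were called lower in Hdac6 KD (median change 0.43), and 14 were called higher and 4 lower in Tip60 KD (median 0.35) and 5 and 2 in double KD (median 0.16). The 34 tested from Zfp600 to Zfp699 were called higher 6 times and lower 5 times in Hdac6 KD and 5 and 11 times in Tip60 KD. For the 28 from Zfp700 to Zfp799 these counts were 6 and 3, and 5 and 6, and for the 23 from Zfp800 to Zfp899 they were 5 and 1, and 5 and 2. This split was made after the values were seen and is a description. Of all genes tested, 14% were called higher and 14.9% lower in Hdac6 KD, and 19.7% and 20% in Tip60 KD. Zfp931, Zfp933, Zfp936, Zfp938, Zfp941 and Zfp947, called higher in both, belong to the second set of 9. In that set 7 probes share at least 20 bases with a probe of another gene.

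By probe position on build mm9, tested members lay on 16 chromosomes, with 28 on chromosome 7, 17 on chromosome 17 and 12 on chromosome 8. On chromosome 7, 10 members were called higher and 3 lower in Hdac6 KD (median 0.25, other genes 0.05, of which 13.8% were called higher and 14% lower), and 8 and 6 in Tip60 KD (median 0.15, other genes 0.10, 19.8% and 18%). On chromosome 17, 5 were called higher and 1 lower in Hdac6 KD (median 0.08, other genes 0.03, 14.7% and 16%), while in Tip60 KD 4 were called higher and 5 lower (median -0.32, other genes 0.09, 21.7% and 19.5%). The 12 on chromosome 8 were called higher 3 times and lower 0 times in Hdac6 KD, where 16% and 13.7% of the other genes there were called. On chromosomes 6, 9, 11 and 15, with 6, 7, 6 and 6 tested, 0 members were called higher in Hdac6 KD. At least 1 was called higher on chromosomes 2, 3, 4, 5, 10, 13 and 14.

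**Figure D4:**
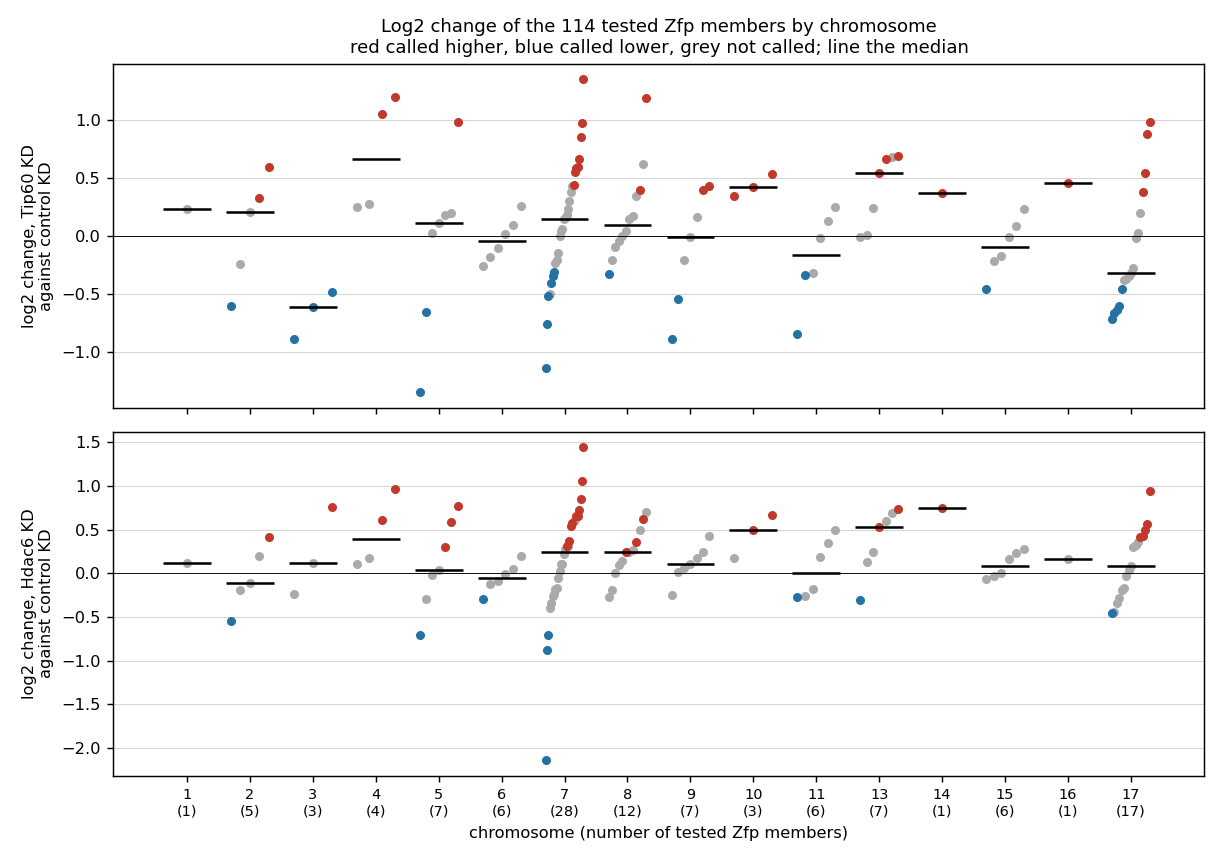
Log2 change of each of the 114 tested Zfp members (y axis) by chromosome (x axis, number of tested members in brackets) in Tip60 KD, upper panel, and Hdac6 KD, lower panel, against control KD. Red points were called higher, blue lower and grey neither, and the line is the median, which on chromosome 17 was -0.32 above and 0.08 below.

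Within chromosomes the members fell into 9 clusters, defined as at least 4 members with under 500 kb between neighbours. The largest, at chr17:21535980-22984542, held 10 members, of which Zfp758, Zfp760, Zfp820, Zfp943, Zfp944, Zfp945, Zfp946, Zfp947 and Zfp948 were tested. Its members differed in direction between the single knockdowns, with 3 higher and 3 lower in Tip60 KD (median -0.32), 4 higher and 0 lower in Hdac6 KD (median 0.35), and 0 higher and 4 lower in Tip60 KD against Hdac6 KD (median -0.46). The 20 other genes tested in that interval had medians of -0.16, -0.03 and 0.08 in the same order, with 0 higher and 4 lower in the direct comparison. A cluster at chr7:134398254-135029250 held Zfp646, Zfp668, Zfp688, Zfp689, Zfp747, Zfp764, Zfp768 and Zfp771 among those tested. The rising Zfp764, Zfp668 and Zfp771 and the falling Zfp688 and Zfp689 thus lie in 1 cluster. In Hdac6 KD its members were called higher 4 times and lower 2 times (median 0.32). The 27 other genes tested there were called 8 and 2 times (median 0.24), so the rise was not particular to the members. In a cluster at chr7:50445732-50873580, which holds Zfp819 and Zfp936, 3 of 4 tested members were called higher in Hdac6 KD and 0 lower, against 0 higher and 3 lower of 8 other genes. The other clusters differed from one another in Hdac6 KD. At chr17:32910629-33154243, with 6 members tested, 0 were called higher and 1 lower (median -0.23), and at chr6:47769288-48012917, with 4 tested, 0 and 1. Higher and lower calls were 0 and 0 at chr8:71752264-72285409 (5 tested, median 0.26) and at chr9:21859904-22081560 (4 tested, median 0.08). They were 1 and 0 at chr13:67139715-67784435 (3 tested, median 0.24). At chr8:74416272-74494111 both tested members were called higher (2 and 0, median 0.30).

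The partners through which KRAB proteins act were taken from a list of 38 corepressor genes, 36 of them tested. In Tip60 KD 7 were called higher and 8 lower, for Hdac6 KD 8 and 5, and for double KD 8 and 7. In Tip60 KD these were 19.4% and 22.2%, against 19.7% and 20% of all genes, a share near the background. In Hdac6 KD they were 22.2% and 13.9%, against 14% and 14.9%, and in double KD 22.2% and 19.4%, against 15.9% and 16.8%. Trim28 rose by 0.95 in Tip60 KD and 0.63 in double KD and changed by 0.31 in Hdac6 KD without a call, and Setdb1 changed by at most 0.09 in size and was not called. Atf7ip, which stabilises Setdb1, rose by 0.68 in Tip60 KD, by 0.57 in Hdac6 KD and by 0.83 when both were depleted. The subunits of the HUSH silencing complex differed, since Mphosph8 fell by 1.23 after Tip60 KD, 0.75 after Hdac6 KD and 1.20 after double KD, Tasor rose by 0.55 in Hdac6 KD and 0.62 in double KD with 0.02 in Tip60 KD, and Pphln1 was called in none (-0.07, -0.04 and -0.01). Senp7, a SUMO protease that acts at heterochromatin, was called lower in all 3 but is dim, with 1 Hdac6 KD array at the floor, and no size is given. The largest change on the list was that of Dnmt3a, with -1.73 in Tip60 KD, -0.98 in double KD and no call in Hdac6 KD (-0.16). Rbbp7 was called lower in Hdac6 KD (-0.92) and double KD (-0.77). Rbbp4 was called lower, and Chd3 and Chd4 higher, in all 3. In at least 1 knockdown, Cbx5, Daxx, Dnmt3b, Gatad2a, Hdac2, Mta1 and Uhrf1 were called higher and Cbx3, Dnmt1, Morc3, Mta3, Sumo2 and Tasor2 lower.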

How the data were processed

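Total RNA of 8 samples was hybridised to Agilent 1-colour mouse arrays. Per the file headers, Feature Extraction 10.7.1.1 made the deposited intensity values, which the authors deposited as background-subtracted processed signals. The deposited series matrix holds log2 values made by the authors from the same arrays and served as an alternative. Processed signals were divided by each array's 75th percentile, floored at 0.153 (log2 of -2.71, which held 4.83% of member values and 8.87% of all values) and log2 transformed. A probe had to exceed background on 2 arrays, and the probe of highest mean signal represented a gene. All 4 groups were fitted together with limma 3.58.1 in R 4.3.3 (4 residual and 1.84 prior degrees of freedom), and Benjamini-Hochberg adjusted p under 0.1 over all genes was a call. The code was tested on simulated data. P-values measure the spread between 2 samples per group, and the number of arrays limits the precision.

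The replicate letter coincided with the slide. Deviations from the group means correlated between same-lettered arrays in all 6 pairs of groups (r = 0.651 to 0.799, across genes), so the letters were taken to pair the arrays, and a fit with the replicate as a block is given beside the counts. Other alternatives were normexp background correction, 1 background on every array, quantile normalization, other floors and filters, the mean of a gene's probes, removal of a GC trend, a 2-fold minimum and omission of each array.

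The members and gene lists were chosen with earlier results of these data known. Members named are the 5 largest called changes each way against control KD, the 3 largest each way in the direct comparisons, the 5 of highest signal and a list with described roles, and others named beside them were chosen after their values were seen. Promoter sequences are from RefSeq (build as printed, 118 of 138 members matched), and probe positions are on mm9. Protein sequences were not used here.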

Additional observations from a re-analysis of the deposited data

How the results depend on the processing

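With a replicate block, the calls numbered 82 in Tip60 KD, then 75 for Hdac6 KD, 66 with both depleted, 51 between Tip60 KD and Hdac6 KD and 48 between double KD and Tip60 KD, and all 85 called results of named members stayed called with the block, while 51 that were not called became so. With the block and a GC trend removed, the counts were 68 in Hdac6 KD, 67 in double KD, 51 between the single knockdowns and 46 between double KD and Tip60 KD. A 2-fold minimum left 6, 3, 3, 2 and 0 of 114 members in the order of the first sentence, and 902, 442, 530, 337 and 13 of all 18112 genes. The 4 calls between double KD and Tip60 KD became 0 with normexp, 2 with the same background on every array, 1 in the series matrix, 9 with probes above the floor on all 8 arrays, 9 with the GC trend removed and 2 over members whose probe shared no 20 bases with another gene, an alternative chosen after seeing the data. Leaving out 1 array gave 36 to 52 calls in Tip60 KD, 22 to 37 in Hdac6 KD, 21 to 28 in double KD, 12 to 25 between the single knockdowns and 0 to 0 between double KD and Tip60 KD. The median change in Tip60 KD was 0.0397 with normexp, 0.0028 in the series matrix, 0.0269 with quantile normalization, 0.12 with a low floor, 0.12 with floored values left missing, 0 with no filter and 0.13 with probes above the floor on all 8 arrays. The median in Hdac6 KD was 0.11 with normexp, 0.11 with the same background, 0.12 in the series matrix, 0.0698 with no filter, 0.15 with the GC trend removed, 0.15 with the block as well, and 0.13 to 0.18 when leaving out 1 array. In double KD it was 0.0229 with no filter, 0.0275 in the series matrix, 0.0395 with normexp, 0.0412 with quantile normalization and 0.0278 to 0.088 when leaving out 1 array. With the mean of a gene's probes the direction turned for Zfp652 in double KD (0.0718), Zfp689 in Tip60 KD (0.13), Zfp692 in Tip60 KD (0.0346) and Hdac6 KD (0.0054), and Zfp932 in Hdac6 KD (-0.77) and in Tip60 KD against Hdac6 KD (0.0191), since their probes moved in different directions. Of 1776 refits of the named results, 1475 kept direction and call, 295 kept direction and lost the call and 6 turned, and 40 of the 85 results were called under every setting other than the 2-fold minimum. Why the other values moved was not tested.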
